A study of Mus musculus with 12 samples.

Results

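The genes described here form the oncofetal Lin28 and Igf2bp set, genes that are active in embryonic cells, silent or low in most adult cells, and found again in some tumours. They are 10 of the 23366 gene entries counted in every library: Lin28a, Lin28b, Igf2bp1, Igf2bp2, Igf2bp3, Hmga1, Hmga2, Sall4, Prtg and Trim71. They were chosen by name, with earlier results of these data known, so their counts beside those of all genes only describe the list. All 10 had an entry, and 9 passed the filter on low counts, Hmga1 being the exception. Lin28a passed it only through its reads in the E12.5 libraries, so its direction in every comparison with E12.5 was fixed by the filter. RNA-seq gene counts came from mouse small-intestinal epithelium of a mixed C57BL/6 and CD1 background, in 4 groups of 3 biological replicates. The embryonic groups, E12.5 and E14.5 after their embryonic day, were cells positive for the epithelial protein EpCAM and negative for CD31, an endothelial protein, and CD45, a white-blood-cell protein. ISC were adult crypt stem cells sorted for high EGFP from the Lgr5 locus, and AE were adult villus cells sorted by the same surface proteins as the embryonic cells and called enterocytes in the labels. Both adult groups came from males of the Lgr5EGFP-Cre-ERT line at postnatal day 60, 1 gut per library, and the E12.5 RNA came from pools of 20 embryos (the E14.5 pools are of unstated size). The adult cells therefore carry a knock-in allele that the labels do not give for the embryos. For the 6 embryonic libraries, titles and age labels name opposite stages. The titles were followed, so the direction of each difference between E12.5 and E14.5 rests on them.

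The LIN28 proteins bind the loop of let-7 microRNA precursors, often at a GGAG motif, and bring in enzymes that add uridines to the precursor, which the nuclease DIS3L2 then degrades. Mature let-7 in turn pairs through its seed with messenger RNAs that include those of Lin28, Hmga2, Igf2bp1 and Trim71, so that Lin28 and let-7 hold each other down. The IGF2BP proteins bind messenger RNAs such as Igf2 and Myc and affect their stability, place and translation. In the developing gut Lin28b and the Igf2bp genes are known as fetal genes, and the switch from Lin28 to let-7 is a classic timer of developmental age.

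The let-7 sequences are shown first because each of the 10 genes carries a match to their shared seed. The mature forms of 9 let-7 family members in RefSeq (GRCm38.p6) had 1 seed, bases 2 to 8, in capitals below. The hairpin of let-7g shows the GGAG motif in capitals.
let-7a: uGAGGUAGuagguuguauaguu
let-7g: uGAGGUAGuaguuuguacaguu
miR-98: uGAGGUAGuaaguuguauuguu
let-7g hairpin: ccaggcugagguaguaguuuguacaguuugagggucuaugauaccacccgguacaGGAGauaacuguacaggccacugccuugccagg
The letters GGAG, read on the hairpin strand alone, occurred in 9 of 12 let-7 hairpins (75.0%) and in 447 of all 1005 hairpins in the table (44.5%). Mature microRNAs were not measured in these libraries. The 12 let-7 hairpin entries held only 11 to 55 reads per library, too few to read a level.

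The DNA letters that pair with the seed, CTACCTC, were searched on the strand of the messenger RNA in 3' UTRs of GENCODE M21 (GRCm38). All 10 genes had at least 1 match, against 1389 of 13520 tested genes with a 3' UTR (10.3%). Lin28b, Igf2bp1, Hmga2 and Trim71 had 4 matches each, Lin28a and Prtg had 2, and Igf2bp2, Igf2bp3, Hmga1 and Sall4 had 1. The genes were listed with let-7 in mind, so these matches are a description of the list and not a finding about it. The first match of each gene with 4, the closely spaced last pair of Trim71 and the single matches of Igf2bp2 and Igf2bp3 follow, all in the 3' UTR, with the match in capitals.
Lin28b, chr10:45381020-45381044, minus strand: acccgggcgggaagtCTACCTCatg
Igf2bp1, chr11:95961776-95961800, minus strand: gctgtgcgaagtaaaCTACCTCaag
Hmga2, chr10:120364222-120364246, minus strand: gccgacattcaatttCTACCTCagc
Trim71, chr9:114512470-114512494, minus strand: aacattgcctaagtcCTACCTCagc
Trim71, chr9:114509045-114509069, minus strand: tttagtatggattttCTACCTCaat
Trim71, chr9:114509019-114509043, minus strand: ttggcaaaaagttgtCTACCTCacg
Igf2bp2, chr16:22059471-22059495, minus strand: acacacaaataaaagCTACCTCagg
Igf2bp3, chr6:49086785-49086809, minus strand: tgcatttttactcaaCTACCTCagg
Longer 3' UTRs held matches more often. Among genes whose 3' UTR was within 20% of the same length, 24.6% held a match for Lin28b, 33.8% for Igf2bp1, 16.9% for Hmga2 and 30.1% for Trim71, and 12.46% and 13.6% did for Igf2bp2 and Igf2bp3. For the other 4 genes these shares were 15.4% for Lin28a, 26.3% for Prtg, 8.59% for Hmga1 and 11.5% for Sall4. Only 12 of the 13520 genes (0.0888%) had 4 or more matches, and 4 of the 12 belong to this set.

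Counts of reads assigned to genes ran from 12.6 to 45.2 per library in units of 1000000. Levels are in counts per 1000000 after scaling between libraries (CPM). Where 4 levels follow each other they stand in the order of the course, E12.5, E14.5, ISC and AE, as mean ± SD over 3 replicates. Differences come from edgeR's quasi-likelihood test over 15342 genes, and a gene is called at a Benjamini-Hochberg adjusted p under 0.05. Summed markers of epithelium were present in every group, from 1672 to 1966 CPM in E12.5 up to 8946 to 11691 in AE. Epcam itself was at 483 ± 46.9, 854 ± 20.4, 1043 ± 49.7 and 1603 ± 406 CPM. Lgr5, the stem-cell label, was at 508 ± 39.6 CPM in ISC and 23.3 ± 3.20 in AE, and Alpi, an enterocyte enzyme, at 27.8 ± 16.1 in ISC and 2824 ± 894 in AE. Summed markers of 15 mesenchymal genes ranged over 26.2 to 35.2, 236 to 306, 9.04 to 9.22 and 13.6 to 14.2 CPM, with Col6a1, Twist1, Twist2, Lum and Des at 0 in ISC and Twist2 at 0 in AE. All 13 tested markers of that list were higher in E14.5 than in E12.5, and 12 were lower in ISC than in E14.5. From E14.5 to ISC, markers of some other tissues fell too, though of 7 tested immune markers 3 were higher and 0 lower. Of 7 enteric neural markers, 6 were lower, with sums of 12.7 to 14.6, 25.1 to 28.1, 4.39 to 4.79 and 6.86 to 10.3 CPM and Sox10 at 0 in ISC. Of 6 tested markers of neighbouring organs such as pancreas, liver and stomach, 4 were lower, and the 10 on that list summed to 96.3 to 128.9, 116 to 226, 18.4 to 38.2 and 21.6 to 29.1 CPM, with Ptf1a, Sox2 and Gkn1 at 0 in both adult groups, Serpina1a at 0 in ISC and Gkn2 at 0 in AE. Of 5 tested endothelial markers 3 were lower, and the 8 on that list summed to no more than 11.7 CPM in any library, with Cdh5 at 0 in ISC and AE and Emcn at 0 in AE. The part of all these markers in the differences below was not tested. In bulk libraries such as these, fewer cells with a transcript and less transcript per cell cannot be told apart.

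From E12.5 to E14.5 all 9 tested genes were called lower. Across all genes tested, 25.6% were called lower in this comparison. The median log2 change of the 9 was -1.19, against -0.02 over all genes. The size of the fall differed widely, from 43.3-fold for Lin28a to 1.33-fold for Igf2bp3. Lin28a, Prtg and Sall4 had lost most of their E12.5 level by E14.5, while Igf2bp2 and Igf2bp3 kept 73.1% and 75.2% of theirs.

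**Figure D1:**
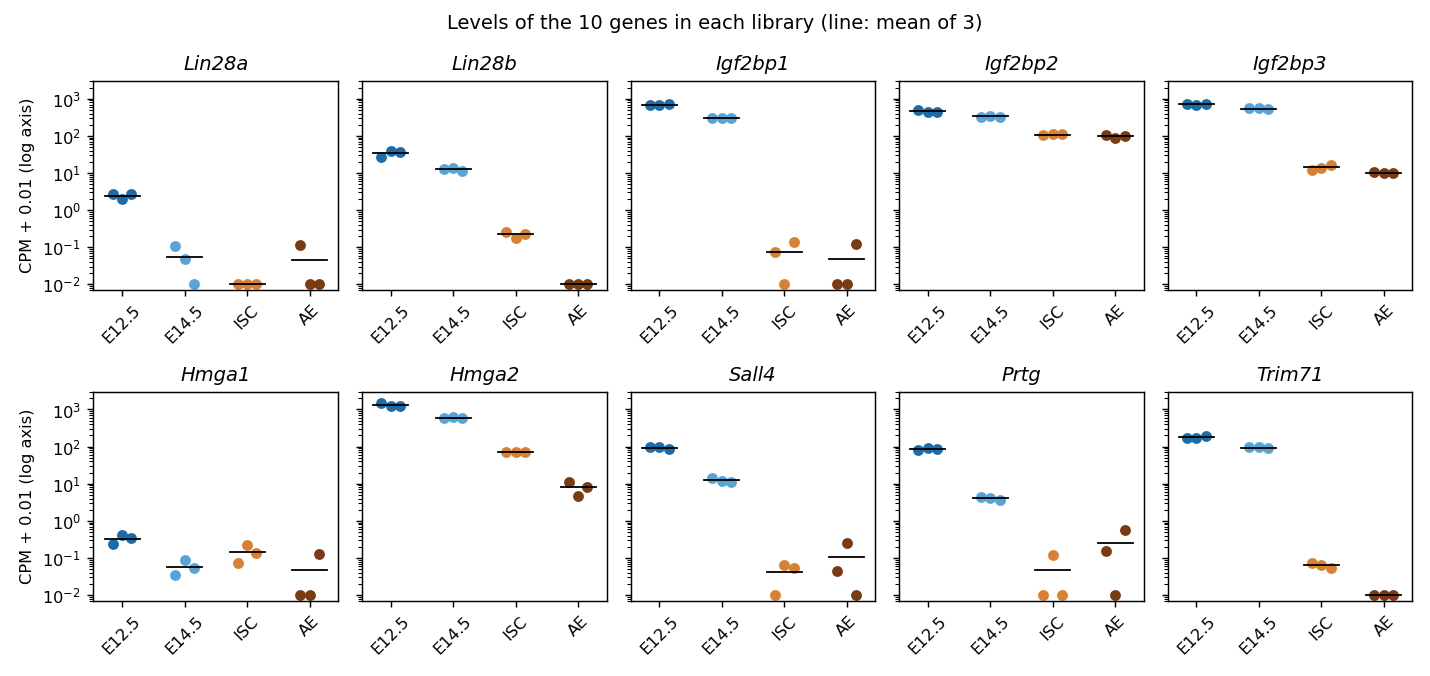
CPM plus 0.01 (log axis) of each of the 10 genes in each of the 12 libraries, with 3 points and a line at the mean for every group; points at the bottom of the axis are libraries with 0 reads. The 3 libraries of a group sit close together wherever reads are many, and Igf2bp2, Igf2bp3 and Hmga2 are the genes that stay clearly above the bottom in both adult groups.

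The Lin28 pair was measured first. Lin28a was at 2.63, 2.00 and 2.75 CPM in the E12.5 libraries, 202 reads in all, and at 0.0997, 0.0390 and 0 CPM in E14.5, 6 reads in all. It was low even at its highest and nearly gone 2 days later, a log2 change of -5.44 ± 0.56 (SE, adjusted p = 9.61e-06), or -6.28 without E14.5 replicate 1. Neither adult group could be told from E14.5, since ISC held 0 reads and AE 3, and the ISC against E14.5 difference gave an adjusted p of 0.0996. Lin28b was at 26.8, 38.5 and 36.0 CPM in the E12.5 libraries and at 13.2, 13.5 and 11.3 in those of E14.5. It was at 0.253, 0.163 and 0.217 CPM in the ISC libraries and at 0 in all 3 of AE. Each stage lay wholly below the one before. The fall was 2.66-fold from E12.5 to E14.5 (adjusted p = 2.43e-05) and 59.0-fold from E14.5 to ISC (adjusted p = 2.62e-09). From ISC to AE the 12 reads of Lin28b went to 0, which is at least 3.47-fold lower against a floor of 3 reads per group (adjusted p = 0.00129). Per kb of exon, Lin28b made up 85.5% ± 3.85 of the Lin28 pair in E12.5 and 99.2% ± 0.849 in E14.5.

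The IGF2BP paralogues began at similar levels and ended far apart. Igf2bp1 was at 688, 666 and 736 CPM in E12.5 and at 300, 306 and 311 in E14.5. In ISC it was at 0.0634, 0 and 0.131 CPM, and in AE only 1 of 3 libraries held a read. The 2 embryonic stages did not overlap with each other or with the adult groups, and the adult groups, which overlapped, together held 5 reads of a gene that had 56494 in E12.5. The fall was 2.28-fold at first (adjusted p = 1.39e-05) and 4084-fold from E14.5 to ISC as fitted (log2 -12.00 ± 0.29, adjusted p = 1.39e-12), a figure that rests on 4 reads in ISC and became -13.16 on the log2 scale without ISC replicate 3.

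Igf2bp3 fell in the same interval but not to nothing. The E12.5 libraries stood at 740, 684 and 745 CPM and the E14.5 libraries at 554, 560 and 516. The ISC libraries stood at 12.3, 13.8 and 16.7 CPM and the AE libraries at 10.3, 10.1 and 10.3, again with no overlap. The first fall was 1.33-fold (adjusted p = 0.00606) and the second 38.0-fold (adjusted p = 1.58e-12). A further fall of 1.39-fold from ISC to AE was called (adjusted p = 0.00307), but gave an adjusted p of 0.0610 when the ISC and AE libraries were fitted alone, and its log2 value of -0.48 ± 0.12 (SE) became -0.31 without ISC replicate 3. Of 50-base stretches of Igf2bp3, 18.1% also occur in transcripts of Malsu1, a gene that was at 13.3 ± 0.531, 15.0 ± 0.311, 18.97 ± 0.595 and 19.2 ± 1.84 CPM. With the strand setting of the counting unknown, its part in the adult Igf2bp3 counts was not tested.

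Igf2bp2 was the exception. The E12.5 libraries stood at 484, 439 and 446 CPM and the E14.5 libraries at 325, 344 and 332. The ISC libraries still held 105, 111 and 110 CPM and the AE libraries 108, 86.3 and 99.1. It fell 1.37-fold (adjusted p = 0.00187) and then 3.07-fold (adjusted p = 7.59e-09), and the ISC and AE libraries overlapped. The log2 difference between AE and ISC was -0.15 ± 0.10 (SE, adjusted p = 0.210). It was called in 2 of the alternative analyses, with an adjusted p of 0.00755 under upper-quartile scaling and of 0.0421 without AE replicate 1.

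Per kb of exon the 3 paralogues can be set beside each other. In E12.5 Igf2bp1 was at 71.9 ± 3.74 CPM per kb, Igf2bp2 at 61.6 ± 3.24 and Igf2bp3 at 88.6 ± 4.11. By share of their summed level, Igf2bp1 went from 32.4% ± 1.06 in E12.5 to 22.1% ± 0.756 in E14.5 and to 0.0405% and 0.0268% in ISC and AE. Igf2bp2 went the other way, from 27.8% ± 1.16 to 31.5% ± 0.655, 89.3% ± 1.36 and 91.2% ± 0.827. The adult epithelium thus kept 1 main IGF2BP transcript, at a summed level of 16.4 ± 0.586 CPM per kb in ISC against 222 ± 8.92 in E12.5. With the longest coding transcript as length, an alternative chosen after seeing the data, the E12.5 shares became 22.7%, 31.9% and 45.4%, and the Igf2bp2 share was 89.5% in ISC and 91.3% in AE.

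**Figure D2:**
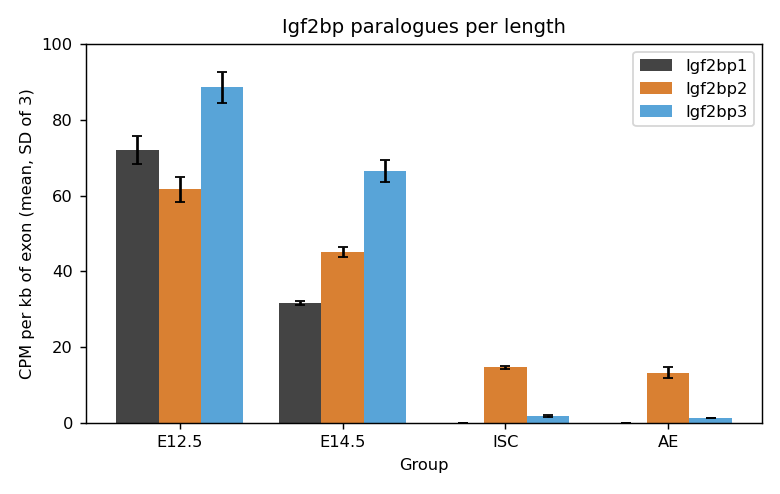
CPM per kb of exon for Igf2bp1, Igf2bp2 and Igf2bp3 in each group, as bars of the mean with the SD of 3 libraries. Igf2bp3 is the highest bar in both embryonic groups, and Igf2bp2 is the highest in ISC and AE at 14.7 and 13.2 CPM per kb.

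Hmga2 and Hmga1 encode AT-hook proteins that bend DNA and help assemble chromatin complexes. Hmga2 had the highest level of the 9 tested genes per kb, 196 ± 16.1 CPM per kb in E12.5. The E12.5 libraries stood at 1456, 1269 and 1264 CPM and the E14.5 libraries at 595, 619 and 590. The ISC libraries stood at 71.1, 70.0 and 71.9 CPM and the AE libraries at 11.1, 4.58 and 8.34. Every group lay below the one before. It fell 2.21-fold (adjusted p = 2.19e-04), 8.46-fold (adjusted p = 1.31e-08) and 8.60-fold (log2 -3.11 ± 0.22, adjusted p = 2.79e-08), which makes it the gene of the set that changed most between the adult groups among those with reads enough for a fold. The AE mean of Hmga2 was 11.3% of its ISC mean, from 6.44% to 15.7% by AE library. The summed level of 6 adult stem-cell markers in AE was 11.3% of that in ISC, from 10.2% to 12.1% by library. Olfm4 made up most of that sum, at 5743 of 7681 CPM in ISC. The single markers ranged from 4.60% for Lgr5 to 18.5% for Rnf43. Their part in the AE level of Hmga2 was not tested. Hmga1 gave 25, 6, 8 and 1 reads in E12.5, E14.5, ISC and AE and was not tested. Near-identical copies of this gene exist in the genome, so its counts are uncertain and cannot be read as a low level.

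Sall4, Prtg and Trim71 were near 0 in the adult. Sall4, a zinc-finger transcription factor of embryonic stem cells and early organs, was at 100.3, 96.8 and 86.3 CPM in E12.5, at 14.1, 11.98 and 11.1 in E14.5, and at no more than 0.245 in any adult library. The fall of 7.61-fold by E14.5 (log2 -2.93 ± 0.17, adjusted p = 2.80e-08) was followed by one to 2 reads in ISC, a ratio of 358 with a 95% counting interval from 99.0 to 2960. Prtg encodes protogenin, a cell-surface receptor of the family of DCC, known from early embryos. It was at 81.9, 92.2 and 85.4 CPM in E12.5 and already at 4.39, 4.12 and 3.74 in E14.5, a 21.1-fold fall (log2 -4.40 ± 0.24, adjusted p = 1.27e-08). ISC held 2 reads, a ratio to E14.5 of 118 with a 95% counting interval from 32.5 to 978, and AE held 9. Both ISC reads lay in replicate 2, and the fitted log2 difference of Prtg from E14.5 went from -6.68 to -9.73 without that library and to -6.05 without ISC replicate 3. Trim71, the mouse form of the worm gene lin-41 and a classic let-7 target, was at 169, 170 and 194 CPM in E12.5 and at 95.5, 94.6 and 92.6 in E14.5. That was a smaller fall, 1.89-fold (log2 -0.92 ± 0.10, adjusted p = 1.10e-05). Only 3 reads were left in ISC and 0 in AE, and the ISC ratio to E14.5 was 1799 with a 95% counting interval from 616 to 8727. These intervals cover counting error only.

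**Figure D3:**
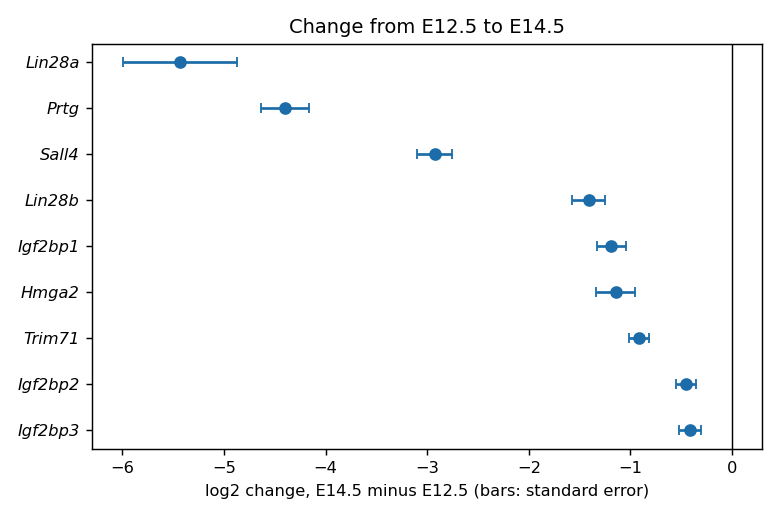
Fitted log2 change from E12.5 to E14.5 of the 9 tested genes with its standard error, sorted by size. Lin28a, Prtg and Sall4 lie below -2.9, and the other 6 genes lie between -1.41 and -0.41.

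By the share of the E12.5 level left in E14.5, the order was Lin28a at 1.88%, Prtg at 4.72%, Sall4 at 13.1%, Lin28b at 37.5%, Igf2bp1 at 43.9%, Hmga2 at 45.2%, Trim71 at 53.0%, Igf2bp2 at 73.1% and Igf2bp3 at 75.2%. Neighbours in this order were compared by the log2 ratio of the 2 genes in each embryonic library, for the 7 pairs from Prtg on. The ratio shifted between the stages without overlap for Prtg and Sall4, by 1.47, for Sall4 and Lin28b, by 1.53, and for Trim71 and Igf2bp2, by 0.46. Each of these gave an exact two-sided permutation p of 0.1, the smallest that 3 against 3 libraries allow, and 0.233 after adjustment over the 7 pairs, so no pair could pass the threshold. The pairs were sorted by the same values, which fixes the direction of each shift. For the pairs Lin28b and Igf2bp1, Igf2bp1 and Hmga2, Hmga2 and Trim71, and Igf2bp2 and Igf2bp3 the ratios of the 2 stages overlapped. The order is a description for every pair. In terms of called differences from E12.5, 6 genes were at least 2-fold lower by E14.5 (Lin28a, Prtg, Sall4, Lin28b, Igf2bp1 and Hmga2), where 13.0% of all tested genes were. Trim71, Igf2bp2 and Igf2bp3 reached that in ISC, so that all 9 tested genes of the set were at least 2-fold below E12.5 there. Of all tested genes, 21.8% were. A 10-fold fall was reached in E14.5 by Lin28a and Prtg, where 1.15% of all tested genes reached it. In ISC 6 more genes reached it, so that all tested genes of the set but Igf2bp2 were at least 10-fold below E12.5 there. Of all tested genes, 10.0% were. Igf2bp2 reached it in no group.

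**Figure D4:**
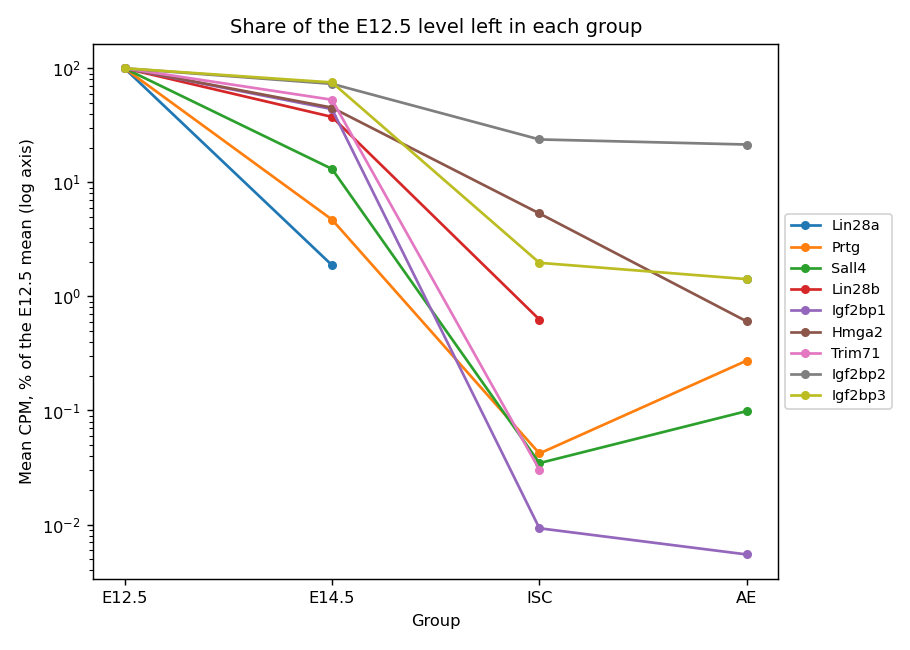
Mean CPM of each tested gene as a percentage of its E12.5 mean (log axis) in the 4 groups; group means of 0 are not drawn, and values below 0.3% rest on 9 or fewer reads, as does Lin28a after E12.5. Lin28a and Prtg drop first, Igf2bp1 and Trim71 drop late and deep, and Igf2bp2 levels off at 23.8% and 21.5%.

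From E14.5 to ISC 8 of 9 tested genes fell and Lin28a was not called, where 30.6% of all tested genes were called lower. The median log2 change of the 9, which is that of Lin28b, was -5.88, against -0.005 over all genes. Whether this second change differed from the first was tested for each gene as the distance of its E14.5 level from the log2 midpoint of E12.5 and ISC. The fall after E14.5 was the larger one for 7 of 9 genes, and 25.2% of all tested genes were called on that side of the midpoint. E14.5 lay above the midpoint by 2.24 ± 0.19 (SE, log2) for Lin28b (adjusted p = 1.78e-06), by 0.97 ± 0.16 for Hmga2 (adjusted p = 2.15e-04), by 0.58 ± 0.08 for Igf2bp2 (adjusted p = 7.69e-05) and by 2.42 ± 0.09 for Igf2bp3 (adjusted p = 4.20e-10). Igf2bp1, Sall4 and Trim71 were also called, from few ISC reads. Prtg was not, at 1.14 ± 0.45 (adjusted p = 0.0512), but passed the threshold in 10 of the alternative analyses, at 2.67 without ISC replicate 2, which held both of its ISC reads. Lin28a lay on the other side, at -0.96 ± 2.91 (SE, log2) from the midpoint, and was not called (adjusted p = 0.812). With limma-voom it was called on that side, at -2.31 (adjusted p = 0.00333). With 6 reads in E14.5 and 0 in ISC, a second fall of Lin28a could not be measured, so neither value compares its falls before and after E14.5. The intervals differ in length, from 2 embryonic days to the whole time up to postnatal day 60, and in cell type, so the changes are not rates.

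Reads that aligned in several places were listed at 3.06% to 5.96% of all reads in the E12.5 and ISC libraries and at 0 in the 6 E14.5 and AE libraries. Each step of the course joins libraries from both sides of that split. Within 1 side, 2 comparisons can be made. All 9 tested genes were lower in ISC than in E12.5, where 34.6% of all tested genes were called lower. Lin28a is among them, though it passed the filter only through E12.5. The falls were 157-fold for Lin28b, 4.20-fold for Igf2bp2, 50.6-fold for Igf2bp3 and 18.7-fold for Hmga2, and at least 47.5-fold for Lin28a. For AE set against E14.5, 8 of 9 were lower, where 41.5% of all tested genes were, again with Lin28a not called. These falls were at least 214-fold for Lin28b and at least 1560-fold for Trim71, 3.40-fold for Igf2bp2, 53.0-fold for Igf2bp3 and 72.8-fold for Hmga2. AE against E12.5 gave 9 of 9 lower, where 43.7% of all tested genes were.

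Between ISC and AE, 3 of 9 genes were called, all lower in AE (Lin28b, Igf2bp3 and Hmga2), where 35.2% of all tested genes were called lower. When the ISC and AE libraries were fitted alone, 1 was called, Hmga2, as Igf2bp3 lost its call and Lin28b had too few reads to be tested. Trim71, Lin28a, Igf2bp1, Sall4 and Prtg had 0 to 9 reads per group in both and were not called. Prtg, with 2 reads in ISC and 9 in AE, was called higher in AE in 3 of 18 alternative analyses, with an adjusted p of 0.0449 under DESeq2, 0.0207 without ISC replicate 2 and 0.0231 without AE replicate 2, against 0.0788 with all libraries in edgeR. Lin28a, Igf2bp1, Sall4 and Trim71 were called in none of theirs, with adjusted p from 0.0602 up.

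The 7 related lists follow, and their counts are to be read beside those of all tested genes. Of all genes, 25.6% were called lower and 23.6% higher in E14.5 against E12.5, 30.6% and 30.2% in ISC against E14.5, and 35.2% and 32.6% in AE against ISC, and the median log2 changes were -0.02, -0.005 and -0.05.

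The RNA-processing genes that act on let-7 moved in both directions. Of 18 genes of let-7 maturation and decay, 6 were lower (33.3%) and 2 higher (11.1%) in E14.5 than in E12.5, and the list's median log2 change was -0.17. Zcchc11, which encodes TUT4, a uridine-adding enzyme that LIN28 recruits, fell from 373 ± 18.6 to 193 ± 7.69 CPM (1.94-fold, adjusted p = 2.09e-04). It then fell to 66.0 ± 15.9 CPM in ISC (2.92-fold, adjusted p = 1.46e-06). Zcchc6, on the same list, rose from 189 ± 8.16 CPM in E14.5 to 276 ± 55.1 in ISC (1.46-fold, adjusted p = 0.00819). Dis3l2, the nuclease of uridylated let-7 precursors, fell 1.68-fold from 30.9 ± 2.25 to 18.3 ± 0.891 CPM and rose again 1.69-fold to 31.0 ± 3.07 in ISC. Hnrnpa1, an RNA-binding protein that acts on let-7 processing, rose 1.70-fold from 8.19 ± 3.08 to 13.8 ± 0.448 CPM in E14.5, though the counts of this gene, which has many near-identical copies, are uncertain. Tarbp2, a partner of Dicer, fell 1.78-fold from 11.5 ± 0.611 to 6.46 ± 1.28 CPM in ISC. From E14.5 to ISC 7 of the 18 were lower (38.9%) and 3 higher (16.7%), with a median of -0.28, and from ISC to AE 11 were lower (61.1%) and 2 higher (11.1%), with a median of -0.63. The shares lower in the first 2 steps are near those of all genes.

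The let-7 target list had 38 genes, with members of this set left out. In E14.5 against E12.5, 14 were lower (36.8%) and 5 higher (13.2%), and in ISC against E14.5, 21 were lower (55.3%) and 11 higher (28.9%). The medians were -0.15 and -0.43. The 2 Myc genes went in opposite directions. Mycn fell 21.9-fold from 57.8 ± 3.63 CPM in E14.5 to 2.64 ± 0.364 in ISC, and Myc rose 4.03-fold from 49.0 ± 17.3 in E12.5 to 198 ± 12.6 in E14.5. Arid3a, a DNA-binding factor, was at 119 ± 6.67 CPM in E12.5 and 142 ± 5.43 in E14.5 and then fell 56.4-fold to 2.50 ± 0.767 in ISC, and Gatm, an enzyme of creatine synthesis, fell 18.7-fold from 7.25 ± 0.759 to 0.381 ± 0.0601. Limd2 fell 3.22-fold from 30.4 ± 2.89 to 9.44 ± 0.227 CPM by E14.5, and Acvr1c, an activin receptor, rose 3.21-fold from 3.19 ± 0.875 to 10.3 ± 0.432.

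Igf2, the namesake target of the IGF2BP proteins, changed in the second interval. It was at 4718 ± 298 CPM in E12.5 and 3707 ± 125.1 in E14.5, and at 4.20 ± 0.517 in ISC, an 883-fold fall (adjusted p = 7.01e-12). Of 13 tested Igf signalling genes, 6 were lower (46.2%) and 1 higher (7.69%) in E14.5 than in E12.5, and 7 were lower (53.8%) and 3 higher (23.1%) in ISC than in E14.5, with medians of -0.35 and -1.63. Irs1, an adaptor of the insulin and Igf1 receptors, fell 7.55-fold by E14.5 (40.1 ± 7.39 to 5.27 ± 0.660 CPM). It rose again 3.77-fold to 19.97 ± 3.31 CPM in ISC (adjusted p = 5.35e-07). Igfbp2 and Igfbp5, which bind Igf in the extracellular space, fell 7.12-fold and 3.18-fold by E14.5, from 41.0 ± 3.19 and 380 ± 21.0 CPM. By ISC, Igfbp5 had 6 reads and Igfbp2 had 2.

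Other fetal RNA-binding genes fell in larger numbers than they rose. Of 29 tested, 18 were lower (62.1%) and 4 higher (13.8%) in E14.5, and 14 lower (48.3%) and 4 higher (13.8%) in ISC against E14.5, with medians of -0.43 and -0.62. Mex3b fell 5.49-fold from 16.8 ± 1.19 CPM and Nova2, a splicing regulator, 4.92-fold from 5.13 ± 0.506, both by E14.5, while Cpeb2, a regulator of translation, rose 4.14-fold from 3.60 ± 0.523 CPM. Celf2 and Nova1, both splicing regulators, fell 27.6-fold and 26.8-fold from E14.5 to ISC, and the 1108 reads of L1td1 in E14.5, a gene known from pluripotent cells, became 3 in ISC. Of 18 other oncofetal genes, 12 were lower (66.7%) and 3 higher (16.7%) in E14.5, and 13 lower (72.2%) and 3 higher (16.7%) in ISC against E14.5, with medians of -0.70 and -4.24. In AE against ISC, 9 of them were lower (50.0%) and 4 higher (22.2%), with a median of -1.05. Afp, on this list, was at 59.5 ± 6.06, 42.4 ± 4.43, 0.198 ± 0.0938 and 104 ± 20.9 CPM, highest in AE. Dusp9, a phosphatase of MAP kinases, fell 5.08-fold from 78.9 ± 7.49 CPM and Ror1, a Wnt receptor, 5.18-fold from 6.15 ± 1.40 by E14.5, whereas Tgfbi, a matrix protein, rose 6.23-fold from 1.84 ± 0.158. H19, the imprinted neighbour of Igf2, went from 6451 ± 357 CPM in E14.5 to 0.338 ± 0.131 in ISC, Gpc3 from 137 ± 3.53 to 0.186 ± 0.0877, and Dlk1 from 1942 reads to 0. Mesenchymal, neural and neighbouring-organ markers changed the same way from E14.5 to ISC, as given above, and their part in these falls was not tested.

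Relatives of the members, by sequence family or, for the Hmgb and Hmgn genes, by name alone, did not all move with them. Of 22 tested, 7 were lower (31.8%) and 3 higher (13.6%) in E14.5, a share lower near that of all genes, and 13 lower (59.1%) and 3 higher (13.6%) in ISC against E14.5, with medians of -0.16 and -0.56. Igdcc3, a receptor of the same family as Prtg, fell 33.1-fold from 110.5 ± 17.3 CPM in E12.5 to 3.29 ± 0.572 in E14.5, and Dcc, the netrin receptor, fell 9.51-fold from 30.5 ± 6.39. Their relative Igdcc4 fell later, 7.76-fold from E14.5 to ISC. Sall2 fell 3.13-fold by E14.5 and a further 4.40-fold from E14.5 to ISC, and Hmgn2 fell 2.28-fold from E14.5 to ISC. Of 20 pluripotency genes, only 6 passed the filter. Of these, Tfcp2l1 fell 2.98-fold and Klf5 rose 1.33-fold by E14.5, and Klf2, Klf4 and Klf5 rose 98.5-fold, 2.80-fold and 1.80-fold from E14.5 to ISC. Pou5f1 and Nanog, which act with Sall4 and Lin28a in embryonic stem cells, had at most 2 reads in any group.

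**Figure D5:**
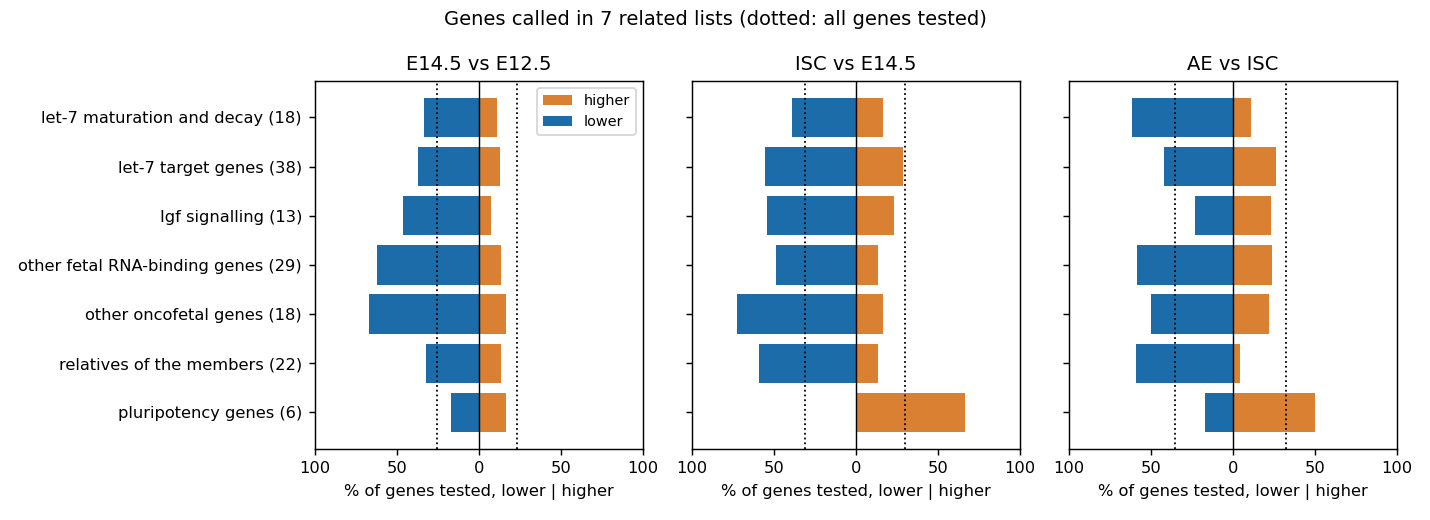
Share of tested genes called lower (left, blue) and higher (right, orange) in 7 related lists for the 3 steps of the course, with the number tested in brackets; dotted lines give the same shares over all 15342 genes. Other oncofetal genes (12 of 18) and other fetal RNA-binding genes (18 of 29) have the longest blue bars in E14.5 against E12.5, where the dotted line is at 25.6%.

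The genes most alike to each tested member were taken by Pearson's r of log2(CPM + 0.5) over the 12 libraries, which fall into 4 groups, so r follows mainly the group means. For Lin28a they were Gabra3 and Dio3 (0.99 each), for Lin28b Cdh3 and Ryr1, for Igf2bp1 Nox4 and Cryz, for Igf2bp2 Rbpms and Enah, for Igf2bp3 Ncrna00086 and Obsl1, and for Hmga2 Lphn1 and Lamc1. For Sall4 they were Plxdc2 and Adamts12, for Prtg St8sia4 and Igdcc3, and for Trim71 Nox4 and Mpped2. All lay above 0.99. Such an r does not measure the size of a change. Rbpms went from 228 ± 7.14 CPM in E12.5 to 3.44 ± 0.666 in ISC, and Enah from 143 ± 5.42 to 0.130 ± 0.0791. Igf2bp2 went from 456 ± 24.0 to 109 ± 2.76. Among the 9 tested members r ran from 0.636 for Lin28a and Igf2bp3 to 0.9997 for Igf2bp1 and Trim71.

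Genes outside the set that carry the let-7 seed match were read in the same comparisons. Among the 12131 genes with no match, 34.9% were lower and 34.1% higher in ISC than in E12.5, and among the 1210 other genes with 1 match 41.1% were lower and 32.0% higher, with a median 3' UTR of 1014 and 2232 bases. Of 149 genes with 2 matches, 36.9% were lower and 39.6% higher, and of 13 with 3 matches 6 were lower and 3 higher. The share called lower thus did not rise steadily with the number of matches. Of the 8 other genes with 4 or more matches, 4 were lower and 1 higher in E14.5 than in E12.5, and 3 were lower and 0 higher in ISC than in E12.5. Nr6a1, a nuclear receptor with 8 matches and on the let-7 target list, was at 59.0 ± 5.69, 29.9 ± 1.496, 54.3 ± 2.99 and 49.1 ± 8.79 CPM. Hic2, with 4 matches, was at 59.6 ± 2.70, 53.6 ± 1.84, 12.1 ± 1.74 and 10.4 ± 3.84 CPM. Both were singled out after their values were seen. The difference between Nr6a1, which was back near its E12.5 level in ISC, and the 4 members with as many as 4 matches, which were at 5.34% or less of theirs, is a description only.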

How the data were processed

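Reads per gene were deposited by the authors as raw counts, 1 file per library. Per the submitters' processing notes the tools were bcl2fastq 1.8.4, STAR 2.3.1z13, SAMtools 1.2, HTSeq 0.6.1p1 and DESeq2 1.6.3, with mm9 as build. What each tool did, the annotation and the use of strand are not stated in them. The 5 rows that name no gene stayed out of library sizes and tests: 33.4% to 58.1% of reads lay outside genes and 0.531% to 1.00% were ambiguous. Per the labels' protocols, 50 ng of RNA was amplified before library making, and amplified reads are not independent molecules.

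Counts were fitted with edgeR 4.0.16 (R 4.3.3) by quasi-likelihood on all 12 libraries, 1 coefficient per group, with TMM factors from 0.696 to 1.16, a common biological coefficient of variation of 0.154 and a prior count of 0.125. A group without any count is given as a bound against a floor of 3 counts per group, equal to 0.0371, 0.0263, 0.0525 and 0.0606 CPM along the course. A group with 1 to 3 counts is given as a ratio with a 95% counting interval. Alternatives were other scalings, no filter, DESeq2 1.42.0, limma-voom 3.58.1, a replicate block, the compared groups alone and leaving out each library. The tests were checked on simulated counts. Replicates differed beyond sampling noise, by a chi-square of at least 3.38 for each degree of freedom.

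The members and the gene lists were chosen with earlier results of these data known. Of each list, up to 3 genes with the largest change in E14.5 against E12.5 and in ISC against E14.5 were named, among those called, without overlap and at 5 CPM or more in the higher group, with the 2 genes most alike to each tested member and Epcam, Lgr5 and Alpi. Pou5f1, Nanog, Malsu1, Zcchc6, Afp, Nr6a1 and Hic2 were added after their values were seen. Current symbols without an entry were matched through older names, such as Tut4 as Zcchc11. The reference build is later than mm9, so coordinates stand beside printed sequences alone, in GRCm38. Kb of exon is the union of GENCODE M21 exons. Some results on marker genes and shared sequence are not reported here.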

Additional observations from a re-analysis of the deposited data

How the results depend on the processing

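The 55 differences of tested genes with 20 or more reads in 1 of the groups were refitted under 19 alternatives, 1045 values in all. Of these, 1031 kept their direction and their side of the threshold, 13 passed it newly, 1 fell short of it (Igf2bp3 in AE against ISC with these groups fitted alone, adjusted p = 0.0610), and 0 changed direction. The other 8, with fewer reads, kept their side of the threshold in every alternative that tested them, except Prtg in AE against ISC, called higher in AE in 3 of 18. With ISC and AE fitted alone, 1 gene was called between them in place of 3. Leaving out each library in turn gave 3 to 4 calls there (the fourth was Prtg, higher in AE, without ISC replicate 2 or AE replicate 2, and Igf2bp2, lower in AE, without AE replicate 1), 7 to 8 genes with a larger fall after E14.5, and the same counts as with all libraries elsewhere (9 for E14.5 against E12.5, 8 for ISC against E14.5). Whether replicate numbers pair the samples was not settled: same-numbered libraries correlated from -0.162 to 0.186. Each E12.5 library correlated best with the ISC library of its own number, at 0.0425 to 0.0737. Replicates 2 and 3 of ISC did so with AE, at 0.186 and 0.106, and replicate 1 did not. Replicate 3 of E12.5 did so with E14.5, at 0.0237, and replicates 1 and 2 did not. In the other pairs of groups no library did. With a replicate block the counts were 9 for E14.5 against E12.5, 8 for ISC against E14.5, 3 for AE against ISC, 9 for ISC against E12.5, 8 for AE against E14.5, 9 for AE against E12.5 and 7 for the larger fall after E14.5. Upper-quartile scaling moved the median log2 change of all genes by -0.20 in AE against ISC, -0.24 in AE against E14.5 and -0.26 in AE against E12.5. Depth limits Lin28a and the adult levels of Igf2bp1, Sall4, Prtg and Trim71, which rest on few reads. The counts of Hmga1 are uncertain.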
